A study of Mus musculus with 2 samples.

Results

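The CC chemokine genes Ccl3, Ccl4, Ccl5, Ccl6 and Ccl9 and the receptor gene Ccr1 were followed across the leukocyte classes of the mouse heart after a catecholamine surge. The 6 genes were taken by symbol from the deposited gene counts, which held 23946 genes in all, and all 6 had UMIs (unique molecular identifiers, 1 per captured transcript) in both libraries. Live CD45+ cells, that is leukocytes, were sorted from the hearts of female C57BL6 mice (C57BL/6J in the study's methods) and profiled by droplet scRNA-Seq. In the ISO group, hearts were taken 24 h after 1 intraperitoneal dose of isoproterenol at 200 mg/kg, a beta-adrenergic agonist used in rodents to produce a state like takotsubo syndrome (TTS, the title of that library). In the control group, mice received vehicle by the same route. Each group was 1 library made from the pooled cells of 3 hearts, and the mice carried no engineered allele. Their age is not given in the labels, and the study's methods give only a range in weeks for the mice of the model. With 1 library per group, no difference between the groups could be tested against the spread between animals, and differences between mice, pools and libraries cannot be told apart from an effect of ISO. All ranges in parentheses are 95% intervals that cover the counting error only. The question was which cells held each chemokine transcript, and whether the classes that held the receptor were the same in both groups.

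CC chemokines are small secreted proteins that guide leukocytes along gradients through G protein-coupled receptors. CCL3 and CCL5 are ligands of CCR1, and CCL5 also acts on CCR3. CCL6 and CCL9 belong to a rodent branch of the family whose members act on CCR1, with higher potency once proteases trim their N-terminal end. In the heart, macrophages live in the tissue at rest, whereas monocytes and neutrophils enter from the blood after injury, and such chemokines take part in that entry.

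The 5 chemokine genes lie in 1 cluster on chromosome 11 that spans 138906 bases (GRCm38, the build of the deposited files). In order along the chromosome these were Ccl5 (chr11:83525778-83530518), Ccl9 (chr11:83572919-83578636), Ccl6 (chr11:83587882-83593087) and Ccl3 (chr11:83647844-83649355), all on the minus strand, and Ccl4 (chr11:83662584-83664683) on the plus strand. Ccl9 and Ccl6 are separated by 9245 bases and Ccl3 and Ccl4 by 13228 bases. Ccl6 is overlapped on the opposite strand by E230016K23Rik, which is also in the count files. Since the sources used here do not state whether reads were counted by strand, reads of that overlap could not be assigned with certainty. Ccr1 lies apart on chromosome 9 (chr9:123962124-123968692, minus strand).

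The promoters of Ccl6, Ccl9 and Ccr1 are shown because these 3 genes were at least 2-fold higher in the macrophages of the ISO group (below). The RefSeq promoter table (GRCm38.p6) held 4 of the 6 genes, namely Ccl3, Ccl6, Ccl9 and Ccr1. Each line gives the 250 bases upstream of the transcription start on the minus strand, 5′ to 3′, at chr11:83593088-83593337 for Ccl6, chr11:83578637-83578886 for Ccl9 and chr9:123968693-123968942 for Ccr1, with matches to a searched motif in capitals.
Ccl6: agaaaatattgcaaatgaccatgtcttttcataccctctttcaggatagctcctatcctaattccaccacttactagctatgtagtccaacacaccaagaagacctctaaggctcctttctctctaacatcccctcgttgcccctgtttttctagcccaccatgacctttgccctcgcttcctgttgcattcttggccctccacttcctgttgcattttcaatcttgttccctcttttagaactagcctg
Ccl9: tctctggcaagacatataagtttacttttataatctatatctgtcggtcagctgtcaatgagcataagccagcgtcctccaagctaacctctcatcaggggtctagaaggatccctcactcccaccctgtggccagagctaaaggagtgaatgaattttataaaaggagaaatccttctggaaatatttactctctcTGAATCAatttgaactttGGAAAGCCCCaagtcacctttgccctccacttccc
Ccr1: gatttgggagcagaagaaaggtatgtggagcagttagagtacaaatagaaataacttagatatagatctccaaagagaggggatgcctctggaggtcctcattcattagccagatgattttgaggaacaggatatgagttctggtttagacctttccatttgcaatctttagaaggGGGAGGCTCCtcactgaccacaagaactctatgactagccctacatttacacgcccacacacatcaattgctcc
The motifs were searched on both strands, namely the NF-kB motif, the AP-1 motif TGANTCA and the C/EBP motif TTGCNNAA, and no 2 matches overlapped in these windows. The Ccl9 window held an NF-kB match, GGAAAGCCCC, from -35 to -26 and an AP-1 match, TGAATCA, from -53 to -47, counted from the base before the start site. The Ccr1 window held an NF-kB match, GGGAGGCTCC, from -74 to -65, and the Ccl3 and Ccl6 windows held no match to any of the 3 motifs. Among 32851 promoters of the same length, 7.25% held an NF-kB match, 6.75% an AP-1 match and 9.56% a C/EBP match. A match of letters is a description of the window and does not show that a factor bound there.

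After the cell filters, 5641 control and 5437 ISO barcodes with 41651434 and 55443553 UMIs remained, with a median of 4790.0 and 8537 UMIs per cell. The libraries shared 15 barcodes. Classes were gated on marker genes, none of which was one of the 6 genes, and each class name stands for barcodes that are like the named type by those markers. The composition differed strongly between the libraries. B cell-like barcodes numbered 1972 in the control library and 37 in the ISO library, NK-like barcodes 399 and 29, classical monocyte-like barcodes 68 and 1937, and macrophage-like barcodes 872 and 1436. The macrophage-like barcodes were divided into resident (559 and 203, with Lyve1, Folr2 and Cd163 among their leading genes), Arg1 (2 and 812, led in the ISO library by genes including Gpnmb, Spp1 and Arg1) and other macrophages (311 and 421). The leading genes of the other macrophages differed between the libraries: Retnla, Rsad2 and Ifnb1 came first in the control library, and C1qa, C1qb and C1qc in the ISO library. Of the leading genes named, Lyve1, Folr2, Cd163, Spp1, Arg1, C1qa, C1qb and C1qc were themselves markers of the gate. Their lead follows from the gating and is no separate evidence of identity. Neutrophil-like barcodes numbered 112 and 53. A further 1572 control barcodes (27.9% of cells, 51.3% of UMIs) and 1249 ISO barcodes (23.0% of cells, 29.6% of UMIs) carried markers of 2 lineages and were set apart. In the control library these had median marker scores of 1.855 for macrophages and 0.667 for B cells, each gated at 0.6. The macrophage-like counts therefore depended on the gate. They were 1761 and 1457 with every gate threshold doubled. With barcodes of 2 lineages kept in the class of their highest relative score, they were 2052 and 2036. Levels are given in the usual CPM unit, in which the summed UMIs of the gene in a class are divided by all UMIs of that class. Since B cells are not a known source of Ccl6, Ccl9 or Ccr1, the B cell-like class served as the background of these genes in each library. That background can hold free RNA and barcodes mixed with other cells, which were not told apart. For Ccl3 and Ccl5, the B cell-like values are given for comparison only.

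Ccl3 and Ccl4, which encode the macrophage inflammatory proteins alpha and beta, shared their sources in most classes. In all kept cells, the Ccl3 level was 809 CPM (801 to 818) in the control library and 1491 CPM (1481 to 1501) in the ISO library. The Ccl4 level was 2443 CPM (2428 to 2458) in the control library and 4841 CPM (4823 to 4859.6) in the ISO library. The log2 ratios over the whole libraries were 0.88 (0.86 to 0.90) and 0.99 (0.98 to 1.0). For comparison, the median log2 ratio of all genes tested was -0.52 over the whole libraries, and within classes it was -0.24 in macrophages, -0.25 in classical monocytes, -0.09 in neutrophils and -0.20 in NK cells.

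In macrophage-like cells, Ccl3 and Ccl4 were abundant in both groups and differed by less than 2-fold. Ccl3 was at 1326 CPM (1297 to 1355) and 1779.6 CPM (1758 to 1801) in the control and ISO libraries, a log2 ratio of 0.42 (0.39 to 0.46). Ccl4 was at 4220.0 CPM (4168 to 4272) and 6013 CPM (5974 to 6053), a log2 ratio of 0.51 (0.49 to 0.53). Arg1 macrophages, which were nearly absent from the control library, had the highest levels among the ISO macrophages, 2041 CPM (2012 to 2071) of Ccl3 and 7129 CPM (7074 to 7184) of Ccl4. Without that class, the log2 ratios were 0.05 for Ccl3 and 0.02 for Ccl4. Within resident macrophages the log2 ratio of Ccl4 was 0.15 (0.10 to 0.19). In the other macrophages both genes were lower in the ISO library, Ccl3 at 1926 and 1371 CPM (log2 ratio -0.49) and Ccl4 at 6889 and 4728 CPM (log2 ratio -0.54). With every gate threshold doubled, these values were 0.27 and 0.29, so their direction depended on the gate.

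Classical monocyte-like cells stood below macrophages in the control library and close to them in the ISO library. Their Ccl3 level was 847 CPM (775 to 924) and 1646 CPM (1628 to 1665), a log2 ratio of 0.96 (0.83 to 1.08). Their Ccl4 level was 2889 CPM (2754 to 3029) and 5449 CPM (5415 to 5484), a log2 ratio of 0.92 (0.85 to 0.98). Both ratios lay just under 2-fold, and under other processing they ranged from 0.87 to 1.32 for Ccl3 and from 0.87 to 1.63 for Ccl4, with the highest values from the gate built from every other marker.

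Neutrophil-like cells showed the widest gap for this gene pair among the myeloid classes compared. Ccl3 was at 268 CPM (214 to 331) in the 112 control barcodes and 2286 CPM (2107 to 2477) in the 53 ISO barcodes, a log2 ratio of 3.09 (2.76 to 3.41). Ccl4 was at 576 CPM (496 to 665) and 5087 CPM (4818 to 5368), a log2 ratio of 3.14 (2.92 to 3.36). The share of neutrophil-like cells with a Ccl3 UMI, after each cell was thinned to 1000 UMIs, was 16.1% (9.81 to 24.2) in the control library and 60.4% (46.0 to 73.5) in the ISO library. Among B cell-like cells it was 1.83% and 2.7%. With no thinning these neutrophil shares were 25% and 84.9%, at a median of 2705.5 and 4023 UMIs per cell. Summed macrophage markers were also somewhat higher in the ISO neutrophils (707 and 962 CPM). Ccr2, a gene of monocyte identity, had 0 UMIs in control and 49 in ISO neutrophils, and Ccl2 was at 34.3 and 1385 CPM. The part of RNA from other cells in the Ccl3 and Ccl4 values was not tested. Among the barcodes with a neutrophil score of at least 2 (106 and 42), the levels were 233 and 2160.0 CPM for Ccl3 and 472 and 3385 CPM for Ccl4. A larger number of barcodes, 264 in the control and 671 in the ISO library, carried neutrophil markers together with those of a second lineage and are not part of this class. With a gate built from every other marker, the log2 ratios were lower, at 1.12 for Ccl3 and 1.38 for Ccl4.

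NK-like cells held both genes at similar levels in the libraries. Ccl3 was at 1163 CPM (1111 to 1217) and 1089 CPM (941 to 1254), a log2 ratio of -0.09 (-0.31 to 0.12), and Ccl4 at 3787 CPM (3692 to 3884) and 3781 CPM (3500.4 to 4079), a log2 ratio of -0.0012 (-0.12 to 0.11). The 29 ISO cells limit the precision of that comparison, and 1 of them held 31.1% of their Ccl3 UMIs.

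The highest levels of both genes lay in a class of few cells. In 19 basophil- or mast-like barcodes of the control library, Ccl3 was at 20131 CPM (19214 to 21080.0) and Ccl4 at 46698 CPM (45297 to 48132). All of these UMIs came from 16 barcodes in which Mcpt8 or Cd200r3, basophil genes, exceeded the mast cell protease genes Cma1, Mcpt4 and Tpsb2. Each of the 16 had Ccl4 UMIs, with 25530 to 111777 CPM per cell. The 3 barcodes in which the mast cell proteases were higher had no UMI of any of the 6 genes, which allows up to 291 CPM for each (the level that 3 UMIs would give). The ISO library held 2 barcodes of this class, too few for a level.

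Plasmacytoid dendritic cells (pDC) departed from the common proportion of the gene pair. In every other class with at least 19 barcodes and 3 Ccl3 UMIs, 2.15 to 6.69 Ccl4 UMIs were counted per Ccl3 UMI. In pDC-like cells there were 67.4 in the control library (16 barcodes, 674 Ccl4 and 10 Ccl3 UMIs) and 26.0 in the ISO library (35 barcodes, 625 and 24 UMIs). The Ccl4 level there was 4655 CPM (4310.4 to 5020.4) and 3152 CPM (2909.5 to 3409), against 4220.0 and 6013 CPM in macrophages, so that it was above the macrophage level in the control library and below it in the ISO library.

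Type 2 innate lymphoid cells (ILC2) and T cells had few UMIs of the pair in the control library and more in the ISO library. In ILC2-like cells Ccl4 was at 41.3 CPM (29.2 to 56.7) and 956 CPM (856 to 1065). In T cell-like cells it was at 149.5 CPM (125 to 177) and 1192 CPM (977 to 1441). Single barcodes held much of this: 1 of 87 ILC2-like barcodes had 48.3% of the Ccl4 UMIs and 1 of 22 T cell-like barcodes had 81.3%.

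**Figure D1:**
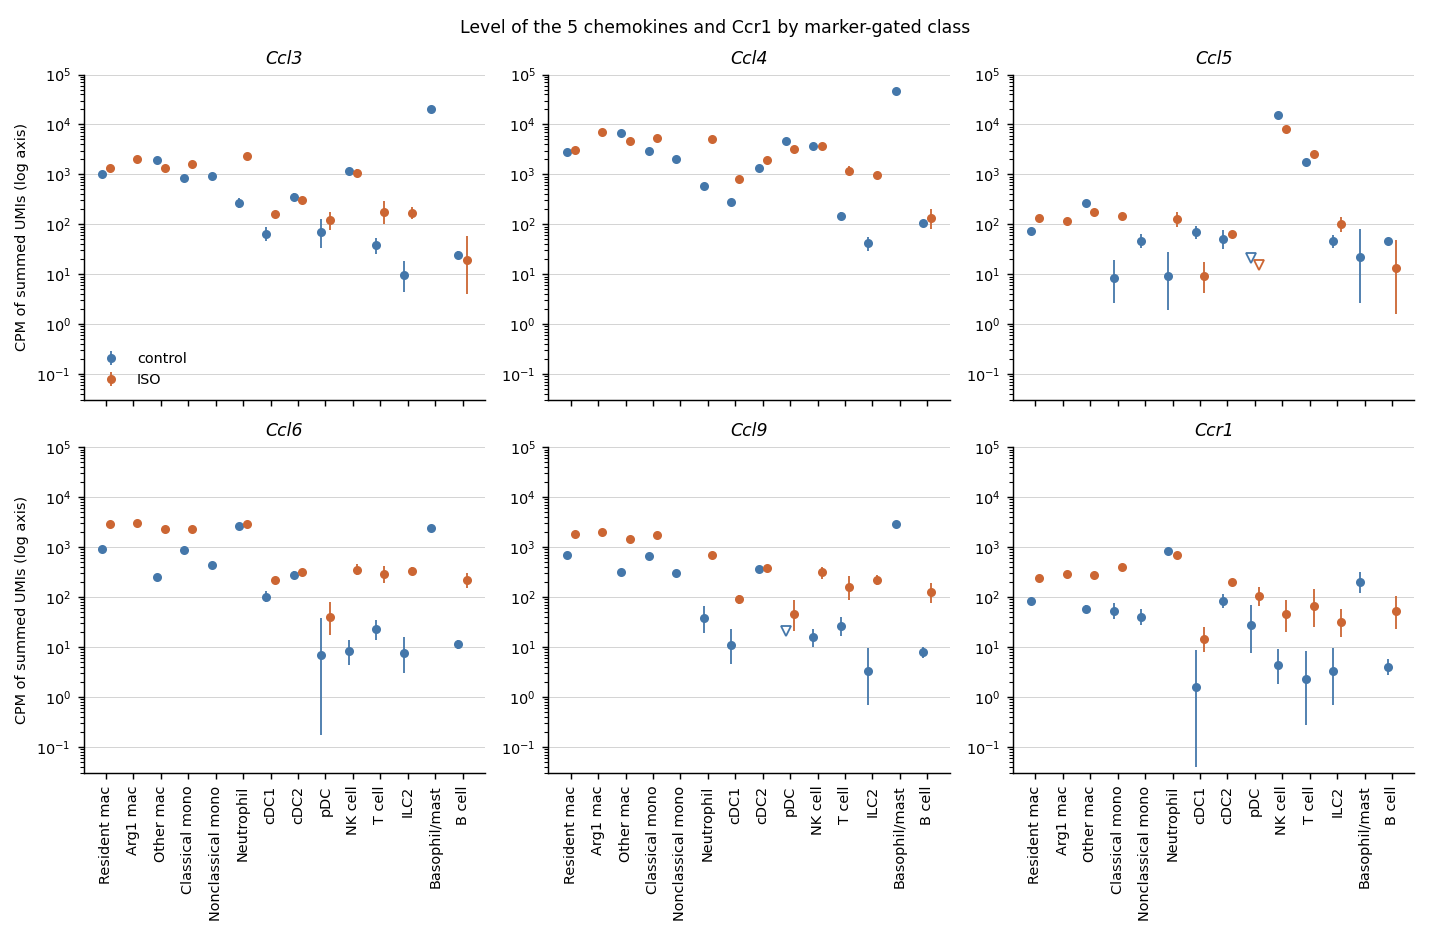
Level of each gene (CPM of summed UMIs, log axis) by marker-gated class in the control (blue) and ISO (orange) libraries, for classes with at least 16 cells, with exact Poisson 95% intervals as bars and open triangles at the level of 3 UMIs where none was counted. Ccl5 stands highest in NK cells at 15488 and 7929 CPM, Ccl3 and Ccl4 in control basophil- or mast-like cells at 20131 and 46698 CPM, and Ccr1 in neutrophils at 847 and 683 CPM.

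Ccl5, known as RANTES and made chiefly by NK cells and activated T cells, was the 1 gene of the 6 that was lower over the ISO library as a whole. It was at 1031 CPM (1021 to 1041) in all kept control cells and 186 CPM (183 to 190.1) in all kept ISO cells, a log2 ratio of -2.47 (-2.50 to -2.44). In NK-like cells the level was 15488 CPM (15294 to 15682) in the control library and 7929 CPM (7520.2 to 8355) in the ISO library, a log2 ratio of -0.97 (-1.04 to -0.89). After thinning, 98.7% (97.1 to 99.6) of control and 93.1% (77.2 to 99.2) of ISO NK-like cells had a Ccl5 UMI, against 1.47% and 5.41% of B cell-like cells (the latter 2 of 37 cells). Nearly every NK-like cell thus carried the transcript in both libraries while its level was lower in the ISO library. Under other processing the log2 ratio in NK-like cells ranged from -1.34 to -0.60. It was -0.60 as the mean of single-cell CPM and -0.61 after thinning, beside a median of -0.20 over all genes of the class. The T cell-like class had 1774 CPM (1687 to 1864) and 2540.4 CPM (2221 to 2892), with 17.3% and 22.7% of cells positive after thinning, and 1 of the 22 ISO barcodes held 67.5% of its Ccl5 UMIs.

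In the myeloid classes Ccl5 was confined to few cells. Macrophage-like cells had 142 CPM (133 to 152) and 135 CPM (129.5 to 141), a log2 ratio of -0.07 (-0.19 to 0.04) that ranged from -1.31 to 1.27 under other processing, so no direction is given. The tenth of the cells with the most Ccl5 held all of these UMIs in the control library and 96.4% in the ISO library. Classical monocyte-like cells had 5 UMIs in the 68 control barcodes and 2660 in the 1937 ISO barcodes, that is 8.35 CPM (2.71 to 19.5) and 147 CPM (142 to 153), a log2 ratio of 4.0 (2.80 to 5.21). Neutrophil-like cells had 3 and 33 UMIs, and 1 ISO barcode held 57.6% of the latter. In cDC1-like cells 44 and 9 UMIs were counted (log2 ratio -2.83), of which 1 barcode held 59.1% in the control library and 1 barcode held all 9 in the ISO library.

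The classes that held the counted Ccl5 UMIs therefore differed, as did the share of each class in all UMIs. In the control library, NK-like cells held 57.2% (56.8 to 57.7) of all Ccl5 UMIs, T cell-like cells 3.62%, macrophages 2.01% and classical monocytes 0.0116%. In the ISO library, NK-like cells held 13.6% (12.9 to 14.3), classical monocytes 25.7% (24.9 to 26.6), macrophages 19.3% (18.6 to 20.1) and T cell-like cells 2.21%. Barcodes with markers of 2 lineages held 35.3% and 36.3%. Of all UMIs in the control and ISO libraries, NK-like cells held 3.81% and 0.32%, classical monocytes 1.44% and 32.6%, and macrophages 14.5% and 26.6%. In each library the Ccl5 share of NK-like cells thus lay above their share of all UMIs. The Ccl5 shares of classical monocytes and macrophages lay below theirs.

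**Figure D2:**
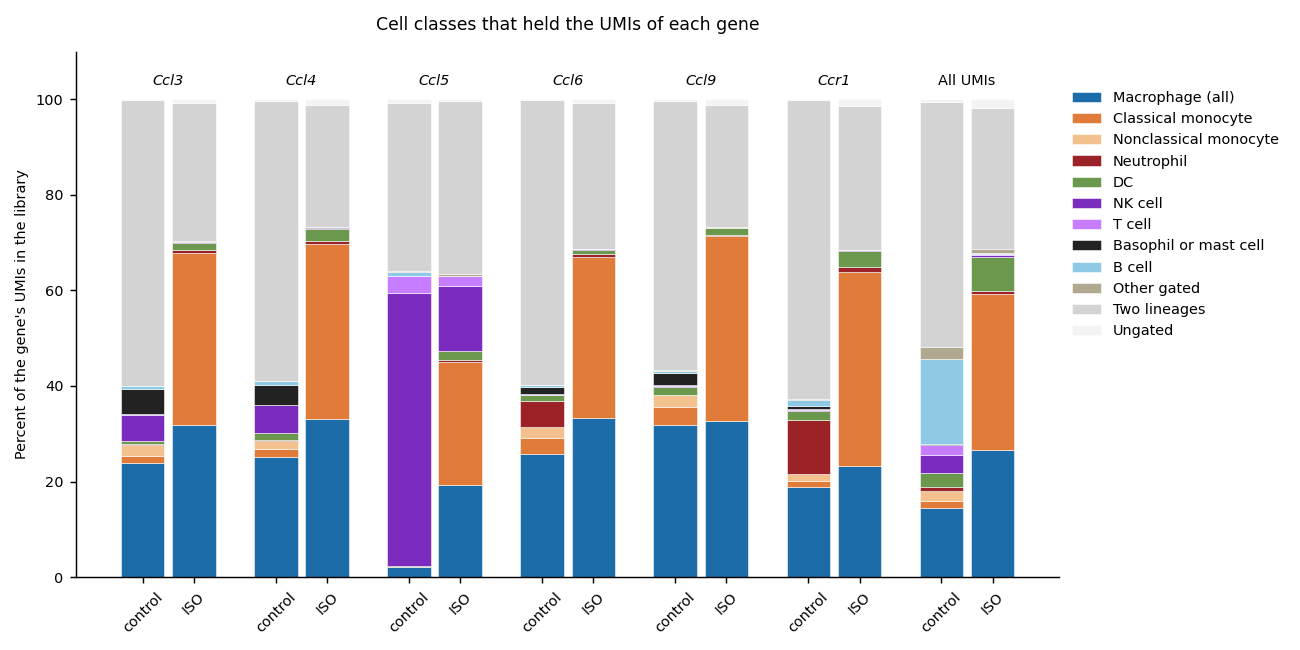
Percent of the UMIs of each gene, and of all UMIs, that lay in each class of the control and ISO libraries (stacked bars, left axis in percent). The NK part of Ccl5 was 57.2% in the control and 13.6% in the ISO library, and the classical monocyte part of Ccr1 was 1.34% and 40.7%.

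Ccl6 and Ccl9, the neighbouring CCR1 ligand genes, were the chemokines with the broadest difference in the mononuclear phagocytes. In all kept cells Ccl6 was at 377 CPM (372 to 383) and 2241 CPM (2229 to 2254), and Ccl9 at 258 CPM (253 to 262) and 1488 CPM (1478 to 1499), in the control and ISO libraries. In macrophage-like cells Ccl6 was at 670.5 CPM (650.0 to 691) and 2805 CPM (2778 to 2832), a log2 ratio of 2.07 (2.02 to 2.11). Ccl9 was at 565 CPM (547 to 585) and 1828 CPM (1806 to 1849.8), a log2 ratio of 1.69 (1.64 to 1.74). The difference was present in each macrophage subclass that both libraries held. Resident macrophages had 895 and 2908 CPM of Ccl6 (log2 ratio 1.70) and 698 and 1810.0 CPM of Ccl9 (1.38). The other macrophages had lower control levels, with 254 and 2301 CPM of Ccl6 (3.18) and 311 and 1448 CPM of Ccl9 (2.22). Arg1 macrophages of the ISO library had 3015 and 2004 CPM. Summed classical monocyte markers also differed between the libraries, at 243 and 1010 CPM in resident and 242 and 2906 CPM in other macrophages. The part of this difference in make-up in the ratios was not tested.

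Of the 6 genes, 3 (Ccl6, Ccl9 and Ccr1) were at least 2-fold higher in ISO macrophages and 0 at least 2-fold lower. Over the 12131 genes tested in that class, 9.36% were at least 2-fold higher and 20.4% at least 2-fold lower. After thinning, 33.0% (29.9 to 36.3) of control and 77% (74.8 to 79.2) of ISO macrophages had a Ccl6 UMI, and 32.1% (29.0 to 35.3) and 72.3% (69.9 to 74.6) had a Ccl9 UMI. With no thinning, 71.3% and 95.5% had a Ccl6 UMI. The background in B cell-like cells after thinning was 0.712% and 5.41% for Ccl6. For Ccl9 it was 0.559% and 0 of 37 cells. Before thinning, the same class held 58 and 19 Ccl9 UMIs, or 7.83 and 125 CPM. The 0 among 37 thinned cells therefore does not show that the Ccl9 background was absent from the ISO library.

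In classical monocyte-like cells both genes were also higher, Ccl6 at 876 CPM (802 to 954) and 2313 CPM (2291 to 2335) (log2 ratio 1.40) and Ccl9 at 677 CPM (612 to 746) and 1765 CPM (1746 to 1785) (log2 ratio 1.38). Together with Ccl5 and Ccr1, 4 of the 6 genes were at least 2-fold higher in this class and 0 at least 2-fold lower, against 11.5% and 21.2% of the 11171 genes tested. Macrophages and classical monocytes bordered on each other in the ISO library, where 308 of 3373 barcodes had marker scores within 0.1 of each other, against 3 of 940 in the control library. Joined as 1 class, their log2 ratio was 1.88 for Ccl6 and 1.64 for Ccl9.

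Neutrophil-like cells separated the gene pair. Ccl6 was at 2669 CPM (2493 to 2854) in the control library and 2961 CPM (2757 to 3177) in the ISO library, with a log2 ratio of 0.15 (0.01 to 0.29) that ranged from -0.27 to 0.32 under other processing, so no direction is given, and 83.0% (74.8 to 89.5) and 75.5% (61.7 to 86.2) of cells had a UMI after thinning. Ccl9 was at only 37.4 CPM (19.3 to 65.3) in control neutrophils, from 12 UMIs, and at 687 CPM (590.3 to 795) in ISO neutrophils, a log2 ratio of 4.15 (3.32 to 4.97). In the ISO library Ccl9 was at 1765 CPM in classical monocyte-like and 125 CPM in B cell-like cells. As for Ccl3 and Ccl4, the part of RNA from other cells in the neutrophil values was not tested. With the gate built from every other marker the Ccl9 ratio was 2.28, and with every gate threshold doubled 5.21. Among the barcodes with a neutrophil score of at least 2, Ccl6 was at 2774 and 2635 CPM and Ccl9 at 23.6 and 475 CPM. In the control neutrophils 71.4 Ccl6 UMIs were counted per Ccl9 UMI, against 1.19 in control macrophages, and the ISO neutrophils had 4.31. In this class 4 of the 6 genes (Ccl3, Ccl4, Ccl5 and Ccl9) were at least 2-fold higher in the ISO library and 0 at least 2-fold lower, against 15.4% and 13.6% of the 3334 genes tested. The Ccl5 value in this count turned to -0.61 among the barcodes with a neutrophil score of at least 2, where 3 and 1 UMIs were counted.

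Lymphoid classes had few Ccl6 and Ccl9 UMIs in the control library and more in the ISO library, and the B cell-like background was higher as well. In NK-like cells Ccl6 was at 8.20 CPM (4.36 to 14.0) and 356 CPM (273 to 455) and Ccl9 at 15.8 CPM (10.2 to 23.3) and 310.4 CPM (234 to 404). In B cell-like cells Ccl6 was at 11.3 CPM (9.04 to 14.0) and 217 CPM (149 to 305), and the tenth of the ISO cells with the most held 93.9% of those UMIs. Summed macrophage markers were higher in the same classes, at 217 and 559 CPM in NK-like and 586 and 1821 CPM in B cell-like barcodes, with 32549 and 12934 CPM in macrophages. The part of these markers in the values was not tested. In NK-like cells, 2 of the 5 genes with enough UMIs (Ccl6 and Ccl9) passed 2-fold and 0 were 2-fold lower, against 9.07% and 19.5% of the 7703 genes tested.

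Type 2 conventional dendritic cells (cDC2) differed from macrophages. Their Ccl6 level was 272 CPM (226 to 325) and 312 CPM (291 to 333) and their Ccl9 level 364 CPM (311 to 424) and 378 CPM (355 to 401), log2 ratios of 0.19 (-0.08 to 0.46) and 0.05 (-0.19 to 0.28). The intervals of both ratios include 0 and lie below 2-fold, and under other processing the Ccl6 value ranged from -1.46 to 0.95.

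**Figure D3:**
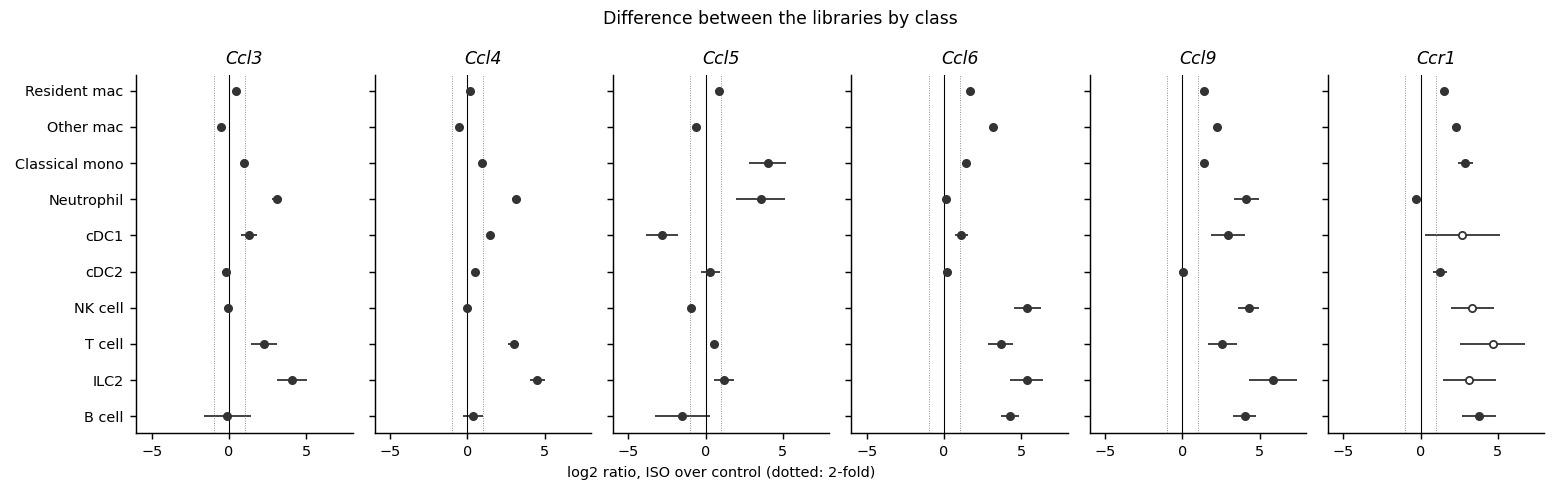
Difference between the libraries for each gene and class as a log2 ratio of CPM, ISO over control, with counting intervals as bars, dotted lines at 2-fold and open points where fewer than 20 UMIs were counted over both libraries. Ccl6 lies at 1.70 in resident and 3.18 in other macrophages but at 0.15 in neutrophils, and Ccr1 at 2.89 in classical monocytes and -0.31 in neutrophils.

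Ccr1, the receptor shared by CCL3, CCL5, CCL6 and CCL9, was at its highest level in neutrophil-like cells in both libraries and was at least 2-fold higher in the mononuclear phagocytes of the ISO library. Control neutrophil-like cells had 847 CPM (749 to 954), followed by basophil- or mast-like cells at 200.1 CPM (119 to 316) from 18 UMIs. Resident macrophages at 83.6 CPM (74.8 to 93.1) and cDC2-like cells at 83.4 CPM (59.0 to 114) followed, and their intervals overlapped. In the ISO library neutrophil-like cells still ranked first at 683 CPM (587 to 791), a log2 ratio of -0.31 (-0.58 to -0.04). Classical monocyte-like cells came next at 402 CPM (393 to 412), against 53.5 CPM (36.6 to 75.5) in the control library, a log2 ratio of 2.89 (2.39 to 3.39). Macrophage-like cells had 74.2 CPM (67.5 to 81.4) and 280.2 CPM (272 to 289), a log2 ratio of 1.92 (1.77 to 2.06), and the value was 1.54 (1.32 to 1.75) in resident and 2.30 (2.03 to 2.57) in other macrophages. The cDC2-like cells had 83.4 and 202 CPM, a log2 ratio of 1.26 (0.79 to 1.73). The B cell-like background was 4.05 CPM (2.73 to 5.78) and 52.6 CPM (22.7 to 104).

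The share of cells with a Ccr1 UMI also put neutrophils first in both libraries. After thinning, 57.1% (47.4 to 66.5) of control and 47.2% (33.3 to 61.4) of ISO neutrophils were positive, and these intervals overlap. Among classical monocytes the share was 4.41% (0.919 to 12.4) and 32.8% (30.7 to 34.9), and among macrophages 7.22% (5.60 to 9.15) and 23.5% (21.3 to 25.7). In B cell-like cells it was 0.508% and 0 of 37 cells, which allows up to 8.11% (the share that 3 cells would give). With no thinning the macrophage shares were 25.2% and 79.5%. By UMIs, control neutrophils held 11.4% (10.1 to 12.7) of all Ccr1 UMIs from 1.99% of the cells, and macrophages held 18.8% (17.2 to 20.4). Barcodes of 2 lineages held 62.7%, so most control Ccr1 could not be assigned to 1 class. In the ISO library classical monocytes held 40.7% (40.0 to 41.4), macrophages 23.2% (22.5 to 23.8), neutrophils 1.0% (0.862 to 1.16) and barcodes of 2 lineages 30.1%. The neutrophil shares leave out barcodes with neutrophil markers and those of a second lineage. In the ISO library 671 such barcodes held 3778 of 17857 Ccr1 UMIs, against 179 in the neutrophil class. In the control library 264 such barcodes held 750 of 2391, against 272 in the class.

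NK-like cells, which held most of the control Ccl5, had only 7 and 8 UMIs of Ccr1 in the control and ISO libraries. Ccr3, a further receptor gene of CCL5, had 37 UMIs in all control cells and 41 in all ISO cells, or 0.888 and 0.739 CPM, too few to describe by class.

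**Figure D4:**
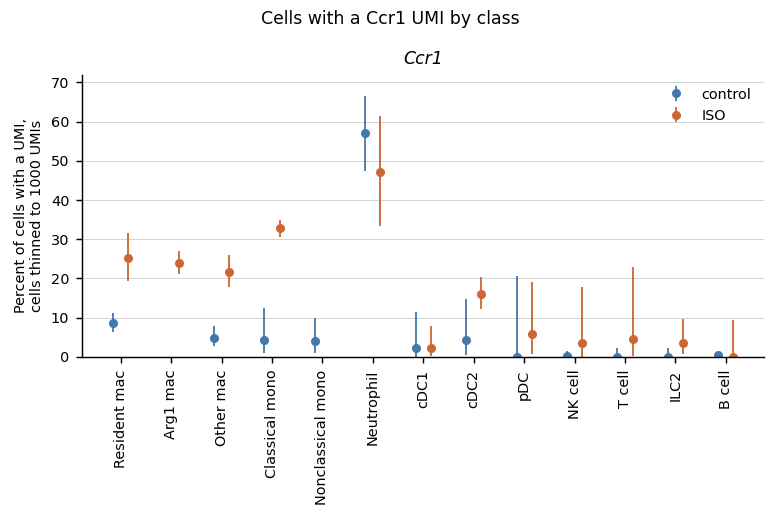
Percent of cells with a UMI of Ccr1 by class, after each cell was thinned to 1000 UMIs, in the control (blue) and ISO (orange) libraries with exact binomial 95% intervals. Ccr1 was found in 57.1% of control neutrophils and 4.41% of control classical monocytes, against 47.2% and 32.8% in the ISO library.

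In the control library, the classes with the highest Ccr1 level (neutrophils) and with the most Ccl5 (NK cells) each held little of the other gene, whereas control neutrophils held both Ccr1 and its ligand gene Ccl6. In the ISO library, macrophages and classical monocytes held 33.3% and 33.6% of Ccl6 UMIs, 32.7% and 38.6% of Ccl9 UMIs, and 23.2% and 40.7% of Ccr1 UMIs, beside 26.6% and 32.6% of all UMIs of the library. A UMI of Ccr1 and a UMI of any of the 4 genes of its ligands (Ccl3, Ccl5, Ccl6 and Ccl9) were found in the same thinned cell in 5.05% of control and 22.4% of ISO macrophages, and in 4.41% and 30.6% of classical monocytes. The products of the single shares were close to these values, at 5.34% and 22.3% in macrophages and 3.57% and 30.3% in classical monocytes.

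Within a class, the members were not spread alike over cells. In macrophages, Ccl3 and Ccl4 were found in the same thinned cell more often than the product of their single shares, 32.8% against a product of 21.7% in the control library and 43.2% against a product of 32.5% in the ISO library. Ccl6 and Ccl9 were found together in 14.9% against a product of 10.6% in the control and 59.8% against a product of 55.7% in the ISO library. For the pair Ccl4 and Ccl6 the values were 15.7% against a product of 18% and 49.9% against a product of 50%. The tenth of ISO macrophages with the most held 47.7% of Ccl3 and 42.7% of Ccl4 UMIs, but 33.6% of Ccl6 and 30.7% of Ccl9 UMIs. In the control library the same shares were 57.1% and 57.1% for the first pair and 51.2% and 44.0% for the second.

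The level over a whole library depends on which classes it holds and on the level within each class. To describe these parts, 1 of them at a time was exchanged between the libraries over 15 classes. For Ccl5, the control library at 1031 CPM would have had 334 CPM with the class shares of the ISO library and its own levels, and 502 CPM with its own class shares and the ISO levels, against 186 CPM measured in the ISO library. For Ccr1, measured at 57.4 and 322 CPM, the ISO class shares alone gave 66.7 CPM and the ISO levels alone 238 CPM. Ccl6, measured at 377 and 2241 CPM, came to 624 CPM with the ISO class shares and 1751 CPM with the ISO levels. Ccl9 behaved alike, with 258 and 1488 CPM measured and 478 and 1020 CPM after exchange. For Ccl3 and Ccl4 the 2 exchanges gave 942 and 1134 CPM and 3036 and 3501 CPM. The exchange is arithmetic on the measured values. It uses the class of 2 lineages as 1 class and the macrophage subclasses joined as 1 class. A change of make-up within either of these classes therefore counts as level, so composition and level are not fully separated.

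**Figure D5:**
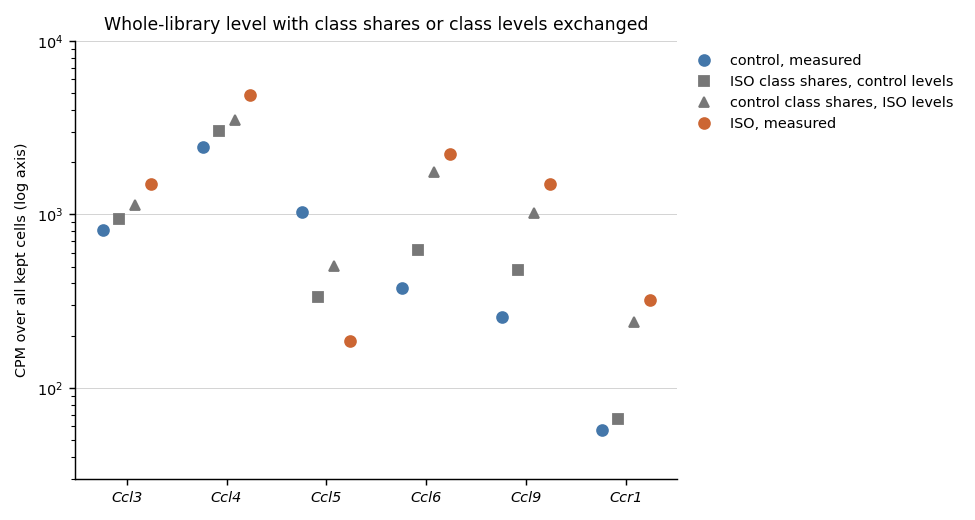
CPM over all kept cells (log axis) of each gene as measured in the control and ISO libraries, and with the class shares or the levels within classes taken from the ISO library. For Ccr1 the exchange of levels gave 238 CPM and the exchange of class shares 66.7 CPM, between 57.4 and 322 CPM as measured.

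Other genes of the pathway were read from lists, here for macrophages with classical monocytes and neutrophils beside them, and counted against the background shares given above. Among 8 receptor genes, 3 had enough UMIs in macrophages and all 3 were at least 2-fold higher in the ISO library. Beside Ccr1 these were Ccr2, the receptor that draws monocytes from blood (176 and 691 CPM, log2 ratio 1.97), and Ccrl2, an atypical receptor (301 and 1562 CPM, log2 ratio 2.38). In classical monocytes Ccr2, a gene of their identity, was at 991 and 878 CPM, log2 ratio -0.18. Among 8 other CC chemokines, 7 were tested in macrophages, of which 3 were higher and 1 was lower. The higher ones were Ccl2, the main CCR2 ligand gene (862 and 5149.8 CPM, log2 ratio 2.58), Ccl7 (log2 ratio 1.81) and Ccl17 (4.80), and the lower one was Ccl8 (13.9 and 2.98 CPM, log2 ratio -2.21). In classical monocytes all 6 that were tested were higher, including Ccl2 (log2 ratio 5.11) and Ccl7 (6.74). In neutrophils, 1 of 3 tested receptor genes was higher (Ccr2, 0 and 49 UMIs). The 2 other CC chemokines tested there, Ccl2 and Ccl7, were higher as well (log2 ratios 5.275 and 3.89).

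Genes of signalling below the receptors mostly stayed within 2-fold in macrophages. Of 26 tested in macrophages, 2 were higher and 3 were lower, against 9.36% and 20.4% of all genes of the class. Their median log2 ratio was -0.09, beside -0.24 over all genes of the class. Rgs1, a regulator that shortens G protein signalling, was among the higher ones (log2 ratio 1.1, and 3.33 in classical monocytes). The lower ones were Pik3cg, a kinase of leukocyte migration (-1.12), Prex1 (-1.21) and Plcb3 (-1.13). In classical monocytes 1 of the 26 was higher and 7 were lower, against 11.5% and 21.2% of all genes of that class. Pik3cg (-1.41) and Prex1 (-1.46) were among the 7. Of 6 genes whose products bind or cleave chemokines, 3 were higher in macrophages, namely Srgn, which encodes the proteoglycan serglycin (1.63), Sdc1 (4.36) and Cd44 (1.31). Dpp4, which encodes a protease that trims CCL5, was at -0.05.

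Regulators of these genes were counted by class, beside the shares of all genes at least 2-fold higher and lower. These shares were 9.36% and 20.4% in macrophages, 15.4% and 13.6% in neutrophils and 9.07% and 19.5% in NK-like cells. In macrophages 1 of 15 was at least 2-fold higher, namely Nfkbia, an NF-kB target and inhibitor (2388 and 6620.3 CPM, log2 ratio 1.47). In neutrophils 6 of 14 were higher, namely Nfkb1 (1.35), Nfkb2 (1.13), Relb (1.46), Nfkbia (1.29), Nfkbie (1.41) and Tnfaip3 (1.05). In NK-like cells 3 of 16 were higher, namely Nfkb1 (1.35), Rel (1.40) and Nfkbia (1.88), and 2 were lower. The lower ones were Tbx21 and Eomes, transcription factors of the NK lineage, at -1.30 and -1.91, while Runx3 and Klf13 were at -0.84 and -0.97. Eomes is also a marker of the NK gate. Of 12 genes known to respond to tissue dissociation and stress, 1 was higher (Ier3) and 4 were lower (Fosb, Egr1, Hspa1a and Hspa1b) in ISO macrophages, with a median of -0.59. In neutrophils 4 of the 12 were higher and 3 lower, among them Hspa1a at 2.65 and Fosb at -1.54. Their part in the chemokine levels was not tested.

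The genes whose level followed each member most closely were sought over 21 class profiles, each with at least 30 cells in 1 library, among 12608 genes. Profiles of 1 library share its depth and free RNA, so the values are a description. Ccl3 and Ccl4 were each other's closest gene (Pearson r = 0.94), followed by Sdcbp (0.89) and Itga5 (0.88) for Ccl3 and Fcer1g (0.89) and Slc35e4 (0.87) for Ccl4. Ccl5 was closest to Nkg7 (0.90), Xcl1 (0.89) and Cd160 (0.87), genes of NK and cytotoxic T cells. Ccl6 was closest to Tgfbi (0.95), Cd14 (0.93) and Reep3 (0.93), and Ccl9 to Ms4a6d (0.96), Fcgr1 (0.94) and Anxa3 (0.93), among which Cd14 and Fcgr1 are monocyte and macrophage surface genes. Ccr1 was closest to Pilrb1 (0.91), Fth1 (0.90) and Osm (0.90). Between the members, r was 0.85 for Ccl6 with Ccl9 and 0.86 for Ccl6 with Ccr1, but -0.25 for Ccl5 with Ccr1.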

How the data were processed

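Live CD45+ cells from hearts were profiled with 10x Genomics 3′ chemistry, and the deposited values are counts of UMIs per gene and barcode. Per the study's methods and the labels, the authors used UMI-tools (version 1.0.0) for barcodes and UMIs, STAR (version 2.7.3a) for alignment and featureCounts (version 1.6.4) for counting, on the mm10 build. The annotation version and the strand setting are not given in the sources used here. The label of the control library also names isoproterenol, so its group was taken from its title. UMI counts from 3′ ends do not scale with transcript length, and PCR copies are removed by UMI.

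Barcodes with over 500 and under 6000 genes and under 25% mitochondrial UMIs were kept, 5641 of 5927 in the control and 5437 of 5514 in the ISO library. Scores (mean natural log of 1 plus UMIs per 10000 over the markers of a type) gated 15 classes at thresholds set after the score distributions were seen. No doublet caller was run, and barcodes with markers of 2 lineages were set apart instead. CPM were computed from summed UMIs with exact Poisson intervals, shares with Clopper-Pearson intervals, and log2 ratios with 0.5 UMI added, in Python (version 3.11.15) with scipy (version 1.17.1). For shares, cells were thinned to 1000 UMIs, which left out 14 control cells. Background counts used genes with at least 20 UMIs over both libraries. The genes named are the 6 members, the listed pathway genes and, for each member, the 3 genes of highest correlation of log2(CPM + 10) over class profiles, among genes with at least 100 UMIs. 1 gene of the receptor list is not reported here. The members and lists were chosen with earlier results of these data known. The steps were tested on simulated data, and the alternatives tried concerned the gate, cell filter, depth, scaling, free RNA and added count.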

Additional observations from a re-analysis of the deposited data

Results flagged for a closer look

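For 4 of the 6 genes, the log2 ratio of ISO over control was above 0 in 1 class and below 0 in another, with counting intervals that did not include 0. The share of all genes that meet this rule was not computed, so the count is not a result about these genes. The classes named are those with the highest and the lowest such value, among classes with at least 20 UMIs of the gene over both libraries, and the B cell-like background was left aside. Below that minimum, Ccr1 was at 4.67 in T cell-like, 3.34 in NK-like and 3.14 in ILC2-like cells, from 8 to 15 UMIs each. With 1 library per group, none of these differences between classes was tested. Ccl3 was at 4.07 in ILC2-like cells and -0.49 in the other macrophages. Ccl4 was at 4.52 in ILC2-like cells and -0.54 in the other macrophages. With every gate threshold doubled, the values in the other macrophages were 0.27 for Ccl3 and 0.29 for Ccl4. In the ILC2-like cells of the ISO library 1 barcode held 52.5% of the Ccl3 and 48.3% of the Ccl4 UMIs. Ccl5 was at 4.0 in classical monocyte-like cells and -2.83 in cDC1-like cells, the latter from 44 and 9 UMIs. Ccr1 was at 2.89 in classical monocyte-like cells and -0.31 in neutrophil-like cells.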

How the results depend on the processing

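No paired analysis was possible because each group was 1 library. No comparison had a test, so the alternatives are read as values, and the 3 settings that joined macrophages with monocytes, left out the Arg1 class or kept neutrophils of a score of at least 2 were chosen after seeing the data. The log2 ratios of the 6 genes in macrophages and of Ccl5 in NK cells moved beyond their counting interval in 60 of 96 alternatives and none of those past 2-fold reversed. The cause of the moves was not tested. Of 490 alternatives to the 42 ratios past 2-fold over all classes, 474 stayed past 2-fold in the same direction and 12 fell under it. Reversals were a Ccr1 value of -0.20 in cDC1-like cells and a Ccl5 value of 1.48 in B cell-like cells with cells thinned to 1000 UMIs, a Ccl6 value of -4.29 in cDC1-like cells with the CPM of the B cell class subtracted, and a Ccl5 value of -0.61 in neutrophils with a score of at least 2. With every gate threshold doubled, the macrophage values were Ccl3 0.50, Ccl4 0.56, Ccl5 -1.29, Ccl6 2.34 and Ccl9 2.0, and the NK value of Ccl5 was -0.80. With barcodes of 2 lineages kept in the class of their highest relative score, the macrophage values were Ccl3 0.60, Ccl4 0.71, Ccl5 -1.31, Ccl6 2.36 and Ccl9 2.12, and the NK value of Ccl5 was -0.88. With a gate from every other marker, the macrophage values were Ccl3 0.48, Ccl4 0.56, Ccl5 1.27 and Ccl6 2.01, and the NK value of Ccl5 was -1.34. In cells with at least 1000 genes and under 10% mitochondrial UMIs, the macrophage value was Ccl4 0.49. Over all deposited barcodes, the macrophage values were Ccl4 0.54 and Ccl5 -0.22. With cells thinned to 1000 UMIs, the macrophage values were Ccl4 0.54, Ccl5 0.80, Ccl6 2.18, Ccl9 1.88 and Ccr1 1.76, and the NK value of Ccl5 was -0.61. As the mean of single-cell CPM, the macrophage values were Ccl3 0.49, Ccl4 0.62, Ccl5 0.60, Ccl6 2.12 and Ccl9 1.79, and the NK value of Ccl5 was -0.60. With median-of-ratios size factors, the macrophage values were Ccl3 0.66, Ccl4 0.75, Ccl5 0.16, Ccl6 2.30, Ccl9 1.93 and Ccr1 2.15, and the NK value of Ccl5 was -0.70. With mitochondrial genes and Gm26924 out of the total, the macrophage values were Ccl3 0.31, Ccl4 0.40, Ccl6 1.95 and Ccl9 1.58. With the CPM of the B cell class subtracted, the macrophage values were Ccl5 0.35, Ccl6 1.97, Ccl9 1.61 and Ccr1 1.70. Without the 5% of cells with the most UMIs, the macrophage values were Ccl3 0.47, Ccl4 0.54 and Ccl5 0.64. For macrophages and classical monocytes together, the macrophage values were Ccl4 0.48, Ccl5 0.12, Ccl6 1.88, Ccl9 1.64 and Ccr1 2.26. Without the Arg1 macrophage class, the macrophage values were Ccl3 0.047, Ccl4 0.015, Ccl5 0.18, Ccl6 1.88 and Ccl9 1.46. Genes at least 2-fold higher numbered 1135 in macrophages, against 2239 at 1.5-fold and 2095 without a UMI minimum, and genes at least 2-fold lower 2472, against 4213 and 5900. In classical monocytes 1290 higher genes became 2241 at 1.5-fold, and 2367 lower genes became 3989 and 8248. In neutrophils 515 higher genes became 795 and 3720, and 455 lower genes 909 and 2333. In NK-like cells 699 higher genes became 1499 and 3869, and 1499 lower genes became 2622 at 1.5-fold. The depth limits the classes with few ISO barcodes, and the wide interval of their values reflects this.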
